A study of Mus musculus with 8 samples.

Results

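The genes described here were 10 genes of the unfolded protein response and the integrated stress response, namely Hspa5, Pdia4, Dnajb9, Herpud1, Xbp1, Atf4, Ddit3, Trib3, Asns and Ddit4, out of 18138 gene symbols on the array. They were chosen by name, and each probe that carries one of these symbols was taken, 17 probes in all. The brightest probe of each of the 10 genes was detected on all 8 arrays, and 16 of the 17 probes entered the tests. Macrophages were grown for 7 days from bone marrow of female C57bl/6J mice of 8 weeks with GM-CSF at 10 ng per ml, and were either wild type (WT) or labelled iNOS-/-. The methods name the iNOS-/- mice as strain B6.129P2-Nos2tm1Lau/J, a mutant of Nos2, the gene of inducible nitric oxide synthase (iNOS), in all cells of the animal. All groups share the GM-CSF culture. Cells of each genotype were left unstimulated or were turned into M1 macrophages with LPS at 200 ng per ml plus IFN-γ at 10 ng per ml for 6 h. Each of the 4 groups (WT unstimulated, WT M1, unstimulated labelled iNOS-/-, M1 labelled iNOS-/-) was measured on 2 Illumina bead arrays. Nothing in the labels tells if the arrays within a group stem from separate mice or cultures, so every p-value measures the spread between arrays, which may be technical.

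The unfolded protein response is switched on when misfolded proteins gather in the endoplasmic reticulum (ER). The sensors IRE1, PERK and ATF6 then raise chaperones and degradation factors through XBP1 and cleaved ATF6, and PERK phosphorylates eIF2α. The integrated stress response is the arm that joins several kinases at eIF2α: general translation falls while ATF4 is made, and ATF4 turns on genes for amino acid synthesis and transport together with CHOP, the product of Ddit3. Macrophages use IRE1 and XBP1 also downstream of Toll-like receptors, and the array measures mRNA only, neither the splicing of Xbp1 nor the translation of Atf4.

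Between 11833 and 12673 probes were detected per array, 46.0% to 49.3% of all probes, and the median absolute difference between both arrays of a group was 0.16 to 0.19 on the log2 scale. Nos2, the gene altered in the iNOS-/- mice, was not detected on any of the 4 unstimulated arrays. It stood at 7.26 ± 0.30 in WT M1 and at 7.58 ± 0.13 in the M1 arrays labelled iNOS-/- (log2 intensity, mean ± SD, n = 2), a difference of 0.32 (SE 0.32, adjusted p = 0.445). The Nos2 probe therefore did not separate the genotypes at the mRNA level. Whether it lies in the altered stretch of the gene is not given in the sources used here, so the genotype is given as labelled throughout. In the paper's Western blots, after longer stimulation, WT M1 macrophages made iNOS protein and iNOS-/- cells did not. The defining macrophage markers Cd68, Lyz2, Itgam, Adgre1, Csf1r, Cd14, Mertk and Fcgr1 were detected on both arrays of every group. Their level was not constant. Their summed intensity was 29741 to 29870 in WT unstimulated cells and 31532 to 33917 in WT M1. It was 23362 to 24272 in unstimulated and 35310 to 36054 in M1 cells labelled iNOS-/-. At adjusted p under 0.05, 1 was higher and 3 lower with the label before stimulation, and 3 higher and 4 lower among M1 cells.

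All values below are log2 intensities after scaling, listed as array 1 and array 2 of a group, and a change is a difference of log2 means from limma with its standard error (SE). A gene is said to rise, fall or differ only where the Benjamini-Hochberg adjusted p over 13868 probes was under 0.05, and it is then called. In bulk RNA, fewer cells of a type and less RNA per cell cannot be told apart.

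The ER and amino acid stress genes moved in both directions in every comparison, and Asns was higher in each of the 4 comparisons between groups. In WT cells, M1 stimulation raised Asns, Xbp1, Pdia4 and Trib3 and lowered Dnajb9, Ddit3 and Atf4. That made 7 of 10 genes called (4 higher and 3 lower) where 35.1% of all tested probes were called, 20.8% higher and 14.3% lower. All 10 had groups that did not overlap, as did 71.3% of all probes. Without array 1 of WT unstimulated cells or array 1 of WT M1, 4 were called, 2 in each direction. The split of all called probes depended on scaling, with 59.3% of them higher here, 44.4% after neqc and 47.5% after quantile normalization, while the members gave 4 higher and 4 lower after neqc and the same counts as here after quantile normalization.

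In cells labelled iNOS-/-, M1 stimulation raised Asns, Hspa5 and Atf4 and lowered Xbp1 and Ddit3, with the rise of Atf4 turning to -0.16 after neqc and -0.17 after quantile normalization, neither called. The count of 5 of 10 called was near the share of all tested probes, 50.3% (25.2% higher and 25.1% lower). It was below the share under the stricter filter (60.4%). The groups of all 10 genes did not overlap (77.2% of all probes). After neqc and after quantile normalization, 2 members were called higher and 3 lower, and without array 1 of the M1 cells labelled iNOS-/-, 1 was called higher and 2 lower.

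Before stimulation, cells labelled iNOS-/- had more Asns, Trib3, Xbp1 and Ddit4 mRNA and less Dnajb9, Ddit3 and Atf4 mRNA than WT cells. This made 7 of 10 genes called, 4 higher and 3 lower, against 32.2% of all probes (16.7% higher and 15.4% lower). In 9 of 10 genes the groups did not overlap (69.8% of all probes), and Pdia4 was the exception.

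Among M1 cells, those labelled iNOS-/- had more Asns, Herpud1 and Atf4 and less Xbp1, Pdia4 and Ddit3 mRNA than WT, but Atf4 and Herpud1 were not called after neqc or quantile normalization, and Atf4 then turned to -0.04. Here 6 of 10 genes were called, 3 in each direction, against 48.2% of all probes, 22.9% higher and 25.3% lower. The groups did not overlap in 9 of 10 genes (74.8% of all probes), with Dnajb9 as the exception.

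The response to stimulation itself differed between genotypes in 8 of 10 genes, where 42.0% of all probes were called. The response was more positive in cells labelled iNOS-/- for Hspa5, Dnajb9, Atf4 and Ddit3 and more negative for Asns, Xbp1, Trib3 and Pdia4, 4 in each direction (19.4% and 22.6% of all probes). Without array 1 of WT unstimulated cells, 5 were called. The median change of the 10 genes lay between -0.04 and 0.17 over the 5 comparisons, and that of all probes between -0.05 and 0.09. The 5 comparisons are built from the same 4 groups and share arrays, so their values stand side by side and are not independent of each other.

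**Figure D1:**
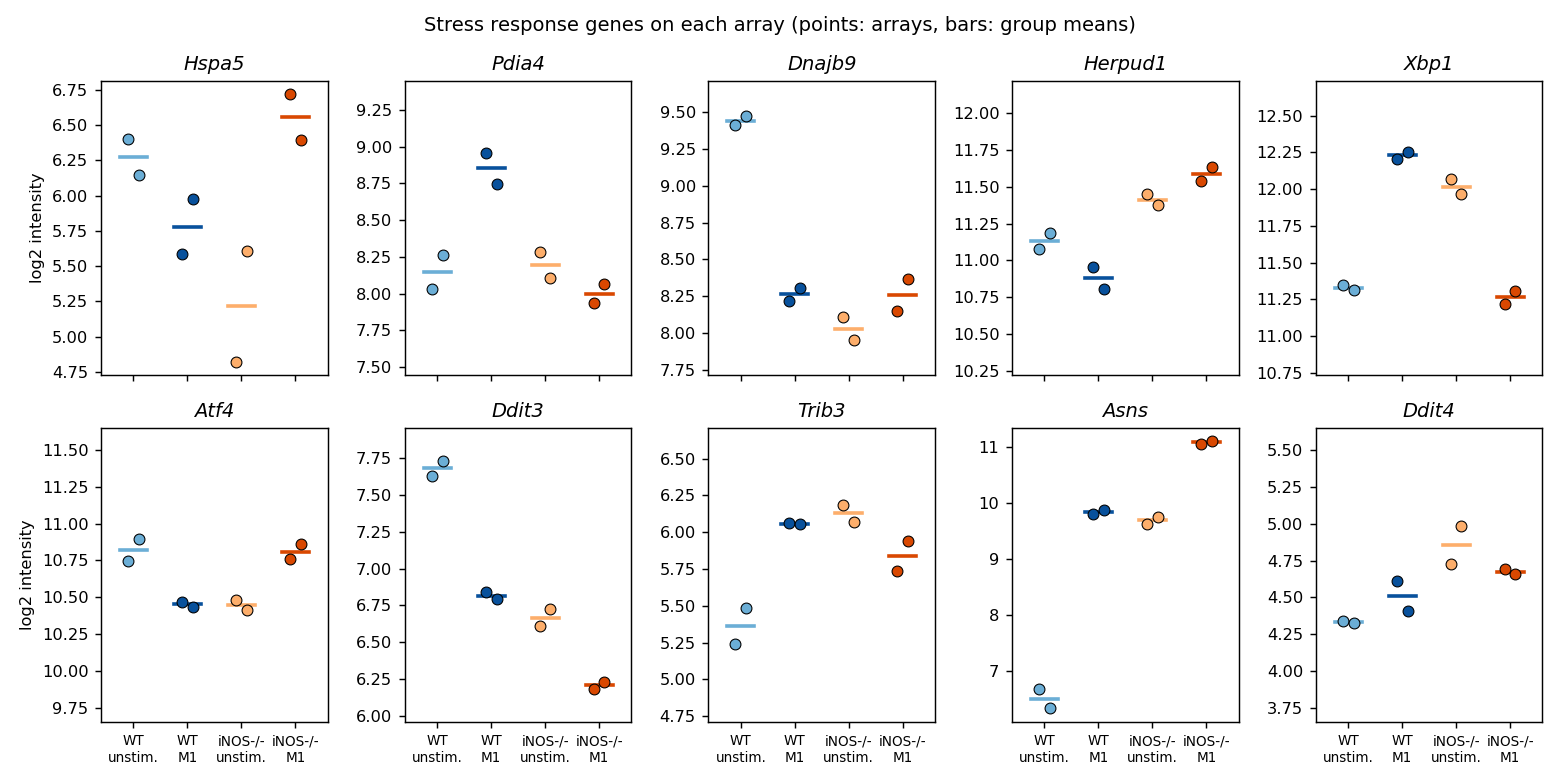
Log2 intensity (y axis) of the brightest probe of each of the 10 genes on each of the 8 arrays, with groups along the x axis, points for arrays and lines for group means (n = 2). Asns lies at 6.34 and 6.68 in WT unstimulated cells and at 11.05 and 11.10 in M1 cells labelled iNOS-/-, and Xbp1 is highest in WT M1 and in unstimulated cells labelled iNOS-/-. Levels of different probes are not comparable.

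**Figure D2:**
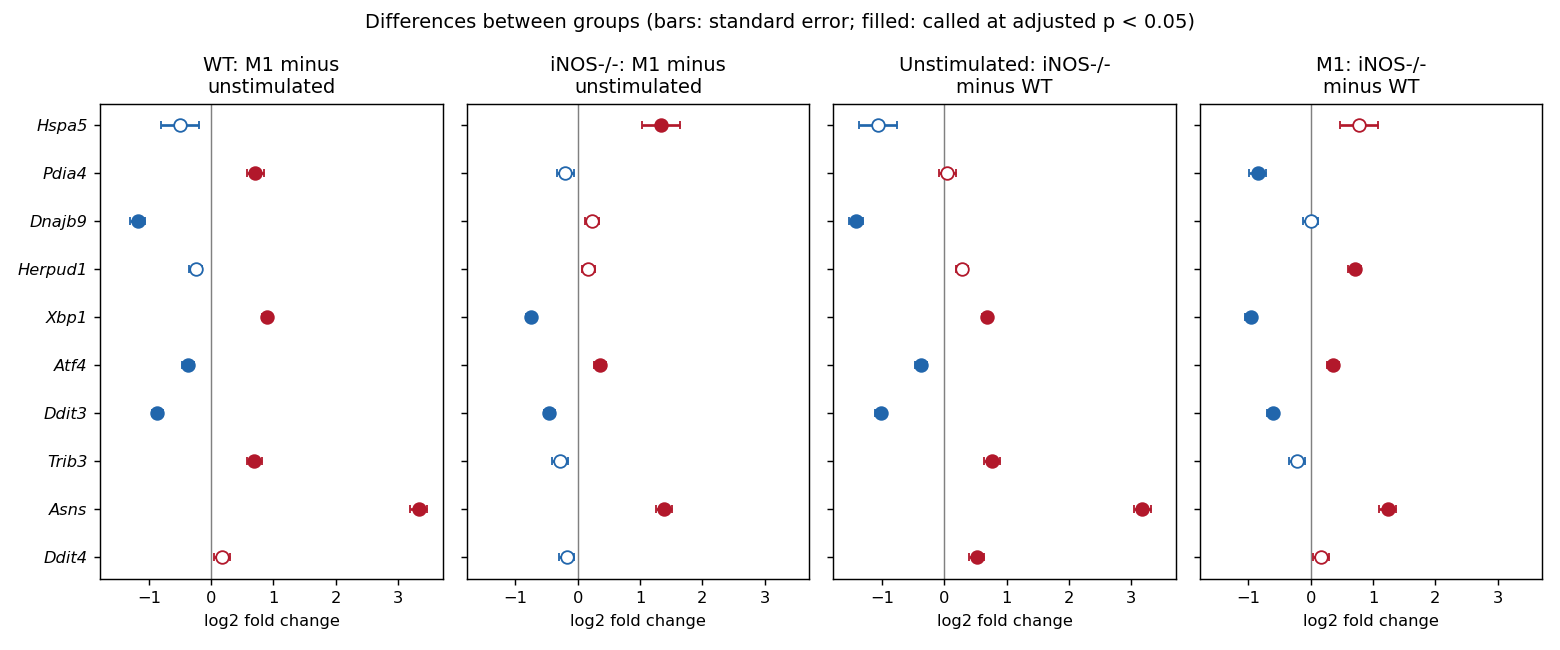
Log2 fold change (x axis) of the brightest probe of each gene in the 4 comparisons between groups, with bars for the standard error and filled symbols for called changes. Asns lies to the right in each panel, from 1.23 to 3.33, and Xbp1 is on the right in the WT response (0.90) and on the left in the iNOS-/- response (-0.75). Atf4 in the iNOS-/- response (0.36) and between M1 groups (0.36) turns negative after neqc and quantile normalization, as does Herpud1 in the iNOS-/- response (0.17).

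Among the genes for protein folding in the ER, Hspa5 encodes BiP, the main ER chaperone, which also holds the stress sensors inactive. Hspa5 was at 6.40 and 6.14 in WT unstimulated cells, 5.59 and 5.97 in WT M1, 4.82 and 5.61 in unstimulated cells labelled iNOS-/- and 6.72 and 6.40 in M1 cells labelled iNOS-/-. The group labelled iNOS-/- had the lowest mean before stimulation and the highest after it, with no overlap between groups compared. Stimulation raised Hspa5 by 1.34 (SE 0.31, adjusted p = 0.0160), or 2.53-fold, in cells labelled iNOS-/-. In WT cells the change was -0.49 (SE 0.31, adjusted p = 0.270), which missed the threshold, and was called only after neqc (-0.54, adjusted p = 0.0333). The responses differed by 1.84 (SE 0.43, adjusted p = 0.0223). Both calls were lost without array 1 of the M1 cells labelled iNOS-/- (1.17 and 1.67), and that of the difference also without array 1 of either WT group. The call of the rise was also lost with the 4 arrays of the comparison alone, and that of the difference without a detection filter. The difference between genotypes was -1.06 before stimulation (adjusted p = 0.0513) and 0.78 after it (adjusted p = 0.0893), neither of them called. The first was called in 5 of 16 alternatives (lowest adjusted p = 0.00285) and the second in 3 (0.00497), neqc among them in both.

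The promoters of Hspa5 and Herpud1 are shown because each held 1 of the 2 motifs searched, the core of the unfolded protein response element (letters TGACGTG), known for binding ATF6 and XBP1, and the core of the element bound by ATF4 with C/EBP proteins (TGATGNAA). Both strands were searched in the 250 bases before the start of each gene, for 32851 promoters of the RefSeq table (GRCm38.p6), in which all 10 members were found. The first motif was in 1.65% of all promoters (542) and the second in 3.45% (1134). Capitals mark the matches, and a match is a description of the letters, not a binding site.
Hspa5, chr2:34771840-34772089, plus strand: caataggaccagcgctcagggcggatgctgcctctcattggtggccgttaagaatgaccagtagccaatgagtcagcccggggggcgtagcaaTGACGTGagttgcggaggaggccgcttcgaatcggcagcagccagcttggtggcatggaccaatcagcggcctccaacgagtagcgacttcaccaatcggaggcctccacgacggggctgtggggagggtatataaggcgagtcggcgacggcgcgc
Herpud1, chr8:94386179-94386428, plus strand: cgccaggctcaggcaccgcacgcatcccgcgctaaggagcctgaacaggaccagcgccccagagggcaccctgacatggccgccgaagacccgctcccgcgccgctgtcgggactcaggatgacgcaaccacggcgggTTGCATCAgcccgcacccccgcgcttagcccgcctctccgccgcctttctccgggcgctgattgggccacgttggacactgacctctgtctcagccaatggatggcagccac
The Hspa5 promoter had the unfolded protein response element core 157 to 151 bases before the start. The Herpud1 promoter had the ATF4 element core on the minus strand at 112 to 105 bases before it. Apart from Asns, shown further below, the other members held neither motif in this window. Other elements of the unfolded protein response were not searched, so a promoter without these letters may still hold one.

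Pdia4, a protein disulfide isomerase that forms and rearranges disulfide bonds in the ER, went another way than Hspa5. It was at 8.03 and 8.26 in WT unstimulated cells, 8.96 and 8.75 in WT M1, 8.29 and 8.10 in unstimulated cells labelled iNOS-/- and 7.93 and 8.07 in M1 cells labelled iNOS-/-. WT M1 was above all other arrays, and the unstimulated groups overlapped (0.05, SE 0.14, adjusted p = 0.822). Stimulation raised it 1.63-fold in WT cells (0.71, SE 0.14, adjusted p = 0.0146), while the change in cells labelled iNOS-/- was -0.20 (adjusted p = 0.293). M1 cells labelled iNOS-/- had 1.81-fold less than WT M1 (-0.85, SE 0.14, adjusted p = 0.00539), a call that no alternative removed. The responses differed by -0.90 (adjusted p = 0.0170), a call lost without array 1 of WT unstimulated cells (-0.76) or array 1 of unstimulated cells labelled iNOS-/- (-0.82). The WT rise was lost without array 1 of WT unstimulated cells (0.57) or of WT M1 (0.61), and with the 4 arrays of the comparison alone.

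Dnajb9 encodes ERdj4, a co-chaperone of BiP that is a known target of XBP1. Its levels were 9.41 and 9.47 in WT unstimulated cells, 8.22 and 8.31 in WT M1, 8.11 and 7.95 in unstimulated cells labelled iNOS-/- and 8.15 and 8.37 in M1 cells labelled iNOS-/-. WT unstimulated cells stood more than 1 unit above the other 3 groups, which lay within 7.95 to 8.37. Stimulation lowered Dnajb9 2.27-fold in WT cells (-1.18, SE 0.12, adjusted p = 0.00164), and unstimulated cells labelled iNOS-/- had 2.67-fold less than WT (-1.41, SE 0.12, adjusted p = 0.000977). The change in cells labelled iNOS-/- was 0.23 (SE 0.12, adjusted p = 0.155), and the M1 groups overlapped (adjusted p = 0.988). The difference in response was 1.41 (SE 0.16, adjusted p = 0.00235), and these 3 calls held in each alternative.

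Herpud1 encodes an ER membrane protein of the degradation machinery that removes misfolded proteins. It was at 11.07 and 11.19 in WT unstimulated cells, 10.96 and 10.81 in WT M1, 11.45 and 11.37 in unstimulated cells labelled iNOS-/- and 11.54 and 11.63 in M1 cells labelled iNOS-/-. Both groups labelled iNOS-/- were above both WT groups. Only the M1 difference was called, 1.63-fold higher with the iNOS-/- label (0.70, SE 0.10, adjusted p = 0.00344), with 0.62 (SE 0.11, adjusted p = 0.00686) at the second probe. This call depended on the scaling: after neqc the M1 difference was 0.23 (adjusted p = 0.0823) and the unstimulated one 0.47 (adjusted p = 0.00477, against 0.28 with adjusted p = 0.0888 here). Quantile normalization gave 0.24 (adjusted p = 0.123) and 0.47 (adjusted p = 0.0239). The change with stimulation in cells labelled iNOS-/- was 0.17 (adjusted p = 0.214) and became -0.42 after both neqc and quantile normalization, called lower in each (adjusted p = 0.00573 and 0.0218).

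Xbp1, the transcription factor whose mRNA is spliced by IRE1, rose with stimulation in WT cells and fell in cells labelled iNOS-/-. It was at 11.35 and 11.31 in WT unstimulated cells, 12.21 and 12.25 in WT M1, 12.07 and 11.97 in unstimulated cells labelled iNOS-/- and 11.22 and 11.31 in M1 cells labelled iNOS-/-. WT M1 and unstimulated cells labelled iNOS-/- were the high groups, and no groups compared overlapped. Stimulation raised Xbp1 1.86-fold in WT cells (0.90, SE 0.09, adjusted p = 0.00151) and lowered it 1.68-fold in cells labelled iNOS-/- (-0.75, SE 0.09, adjusted p = 0.00133). The label went with 1.61-fold more Xbp1 before stimulation (0.69, adjusted p = 0.00369) and 1.95-fold less after it (-0.96, adjusted p = 0.000745). The difference in response was -1.65 (SE 0.12, adjusted p = 0.000677), and all 5 calls held in each alternative. Dnajb9, described above as an XBP1 target, was not high in the 2 groups that were high in Xbp1. The array did not measure the splicing of Xbp1, and a link between the 2 genes was not tested.

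Atf4 encodes the transcription factor whose translation rises when eIF2α is phosphorylated. It was at 10.75 and 10.89 in WT unstimulated cells, 10.47 and 10.43 in WT M1, 10.48 and 10.41 in unstimulated cells labelled iNOS-/- and 10.76 and 10.86 in M1 cells labelled iNOS-/-. WT unstimulated and M1 cells labelled iNOS-/- were the higher groups, by 1.28-fold to 1.29-fold. Stimulation gave -0.37 in WT cells (SE 0.09, adjusted p = 0.0337) and 0.36 in cells labelled iNOS-/- (SE 0.09, adjusted p = 0.0253), and the responses differed by 0.73 (SE 0.13, adjusted p = 0.00988). The genotypes differed by -0.37 before stimulation (adjusted p = 0.0343) and by 0.36 after it (adjusted p = 0.0282). Each of these 4 differences between groups lost its call when any 1 array of the groups compared was left out, with adjusted p between 0.0506 and 0.147. The second Atf4 probe was called in no comparison, its values running from -0.24 to 0.33 over the 5 comparisons, and after neqc the difference in response was 0.19 (adjusted p = 0.285).

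Ddit3 encodes CHOP, a partner of ATF4 that is linked to cell death under lasting ER stress. It was at 7.63 and 7.73 in WT unstimulated cells, 6.84 and 6.79 in WT M1, 6.61 and 6.72 in unstimulated cells labelled iNOS-/- and 6.19 and 6.23 in M1 cells labelled iNOS-/-. The groups followed in this order without overlap. Stimulation lowered Ddit3 1.82-fold in WT cells (-0.87, SE 0.09, adjusted p = 0.00194) and 1.37-fold in cells labelled iNOS-/- (-0.46, SE 0.09, adjusted p = 0.00912). Cells labelled iNOS-/- had less Ddit3 before stimulation (-1.02, adjusted p = 0.00121) and after it (-0.61, adjusted p = 0.00377), and these 4 calls held in each alternative for this probe. The difference in response, 0.41 (SE 0.13, adjusted p = 0.0499), lay at the threshold and was lost when any single array was left out, with adjusted p between 0.0652 and 0.141.

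Trib3, a pseudokinase induced by ATF4 and CHOP that feeds back on them, was at 5.24 and 5.49 in WT unstimulated cells, 6.06 and 6.05 in WT M1, 6.18 and 6.07 in unstimulated cells labelled iNOS-/- and 5.74 and 5.94 in M1 cells labelled iNOS-/-. WT unstimulated cells were below the other groups. Trib3 rose 1.62-fold with stimulation in WT cells (0.69, SE 0.13, adjusted p = 0.0119) and was 1.70-fold higher in unstimulated cells labelled iNOS-/- (0.76, SE 0.13, adjusted p = 0.00924). The change in cells labelled iNOS-/- was -0.29 (adjusted p = 0.115), the M1 difference was -0.22 (adjusted p = 0.212) and the responses differed by -0.98 (SE 0.18, adjusted p = 0.00982). The WT rise was lost without array 1 of WT unstimulated cells (0.55) or either array of WT M1 (0.70 and 0.71), and the unstimulated difference without array 1 of the cells labelled iNOS-/- (0.72). With the mean of the tested Trib3 probes all 3 calls were lost (adjusted p = 0.326 in WT cells, 0.246 before stimulation and 0.196 for the difference in response).

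Asns, asparagine synthetase, is a classical ATF4 target of the amino acid response. It was at 6.68 and 6.34 in WT unstimulated cells, 9.80 and 9.88 in WT M1, 9.63 and 9.75 in unstimulated cells labelled iNOS-/- and 11.05 and 11.10 in M1 cells labelled iNOS-/-. WT unstimulated cells were lowest, WT M1 and unstimulated cells labelled iNOS-/- stood close together, and M1 cells labelled iNOS-/- were highest. Stimulation raised Asns 10.1-fold in WT cells (3.33, SE 0.14, adjusted p = 9.8e-05) and 2.61-fold in cells labelled iNOS-/- (1.39, SE 0.14, adjusted p = 0.000772). With the iNOS-/- label it was 9.07-fold higher before stimulation (3.18, adjusted p = 0.00014) and 2.35-fold higher after it (1.23, adjusted p = 0.00142). The responses differed by -1.95 (SE 0.19, adjusted p = 0.00149), and all 5 calls held in each alternative.

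The Asns promoter is shown because it held a TGATGNAA core, here in capitals, 23 to 16 bases before the start.
Asns, chr6:7693210-7693459, minus strand: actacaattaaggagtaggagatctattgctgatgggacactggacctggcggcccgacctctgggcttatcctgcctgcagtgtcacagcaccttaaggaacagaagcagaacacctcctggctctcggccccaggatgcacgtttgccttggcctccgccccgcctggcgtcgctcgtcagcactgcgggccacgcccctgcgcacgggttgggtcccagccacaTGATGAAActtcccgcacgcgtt
Of the 10 members, 2 held this core, Asns and Herpud1, and the WT response was -0.25 for Herpud1 (adjusted p = 0.114, not called) and 3.33 for Asns.

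Ddit4, also called REDD1, restrains mTORC1 and is induced by ATF4 and by hypoxia. It was at 4.34 and 4.33 in WT unstimulated cells, 4.61 and 4.41 in WT M1, 4.73 and 4.98 in unstimulated cells labelled iNOS-/- and 4.70 and 4.66 in M1 cells labelled iNOS-/-. Both groups labelled iNOS-/- were above both WT groups by small steps. Ddit4 was called only before stimulation, 1.44-fold higher with the label (0.52, SE 0.12, adjusted p = 0.0286), and this was lost after neqc (0.22, adjusted p = 0.0962) and quantile normalization (0.36, adjusted p = 0.0646), under which the M1 difference was called instead (0.25 and 0.42, against 0.17 here). The unstimulated call was also lost without either array of WT unstimulated cells (0.50 and 0.49) or without array 2 of the cells labelled iNOS-/- (0.41). The same held with the replicate number as a block and with the 4 arrays of the comparison alone.

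Several probes of a gene gave the same calls in each comparison for Asns and Herpud1 and not for the others. The 3 Asns probes were called in all 5 comparisons. Probe 277 (named, as the others, by the start position given in the file) was not detected in WT unstimulated cells, so its rise is a bound, at least 6.38-fold in WT M1 and at least 3.07-fold in unstimulated cells labelled iNOS-/-. The second Ddit3 probe (start 513) fell further with stimulation, with -1.80 in WT cells and -1.04 in cells labelled iNOS-/- (adjusted p = 0.00318 and 0.0116), and its M1 difference of -0.41 was not called (adjusted p = 0.181). The second Trib3 probe (start 923), detected on 5 arrays, was called nowhere and had SEs of 0.94, and the third (start 1523), detected on 1 array, was not tested.

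**Figure D3:**
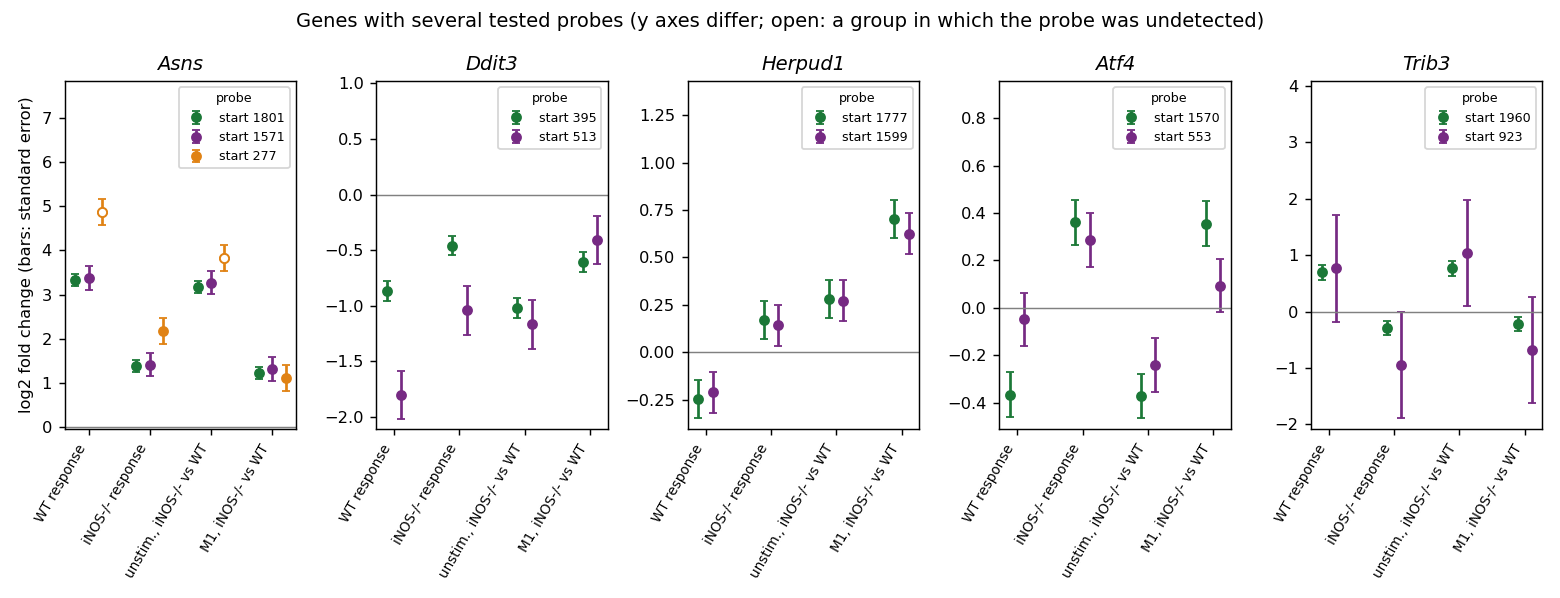
Log2 fold change (y axis, with its own range in each panel) of each tested probe of the 5 genes with several probes in the 4 comparisons (x axis), with bars for the standard error and open symbols where 1 group had the probe undetected. The probes of Herpud1 lie together, Asns probe 277 lies above the other 2 in 3 comparisons (2.17 against 1.39 and 1.41 in the iNOS-/- response), those of Ddit3 differ most in the WT response (-0.87 and -1.80), and Trib3 probe 923 has SEs of 0.94.

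The other genes of the pathway were taken from 4 lists of 61 genes, of which 55 were on the array and 41 could be tested. Not analysed here, because the table has no such symbol, were Dnajb11, Sdf2l1, Atf6, Eif2ak3, Ppp1r15a and Slc7a5. The counts of each list stand against the shares of all probes given above, and no test of a list as a whole was made.

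Among 18 tested partners and targets of ATF4, 8 rose and 2 fell with stimulation in WT cells (median change 0.68, against 0.09 over all probes). The 8 were Phgdh (2.67), Psat1 (1.67) and Shmt2 (1.96) of serine and glycine synthesis, Mthfd2 of mitochondrial one-carbon metabolism (2.11), Aldh18a1 of proline synthesis (2.27), the cystine transporter subunit Slc7a11 (0.99), Sesn2, an inhibitor of mTORC1 (1.65), and Chac1. Chac1, which breaks down glutathione, was not detected in WT unstimulated cells and was at least 6.32-fold higher in WT M1. The 2 that fell were Gdf15, a stress cytokine (-1.55), and the transcription factor Atf3 (-1.09). After neqc the rises of Shmt2, Aldh18a1 and Phgdh were smaller (0.97, 1.63 and 1.97) and still called. Of these 10, Chac1 and Gdf15 were named by rule, and the others were chosen after their values were seen.

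Unstimulated cells labelled iNOS-/- differed from WT in 11 of these 18 genes, 7 higher and 4 lower (median 0.24, all probes 0.00). Chac1 was at least 14.1-fold higher, and Phgdh (2.63), Aldh18a1 (2.19), Mthfd2 (2.10), Shmt2 (1.83), Psat1 (1.69) and Sesn2 (1.44) were higher too, while Atf3 (-1.89) and Gdf15 (-1.80) were lower. After neqc Shmt2 was at 0.95 and Phgdh at 1.99, both called. Per array, Phgdh was at 4.67 and 4.54 in WT unstimulated cells, 7.33 and 7.22 in WT M1, 7.26 and 7.20 in unstimulated cells labelled iNOS-/- and 6.45 and 6.77 in M1 cells labelled iNOS-/-. Its order was that of Asns in the first 3 groups, and in the fourth Phgdh lay below both M1 of WT and the unstimulated label, where Asns lay above.

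In cells labelled iNOS-/-, stimulation raised 6 and lowered 4 of the 18 (median 0.03, all probes 0.00). Slc7a11 rose most (2.41), with its partner Slc3a2 (1.65) and Mthfd2 (1.35), and Sesn2 (-1.44), Aldh18a1 (-0.67) and Phgdh (-0.62) fell. Among M1 cells, 3 were higher with the label (Slc3a2 1.59, Slc7a11 1.41, Mthfd2 1.33) and 5 lower, Sesn2 by the most (-1.65). The response differed in 13 of 18, with 6 more positive, Gdf15 by the most (1.67), and 7 more negative, led by Phgdh (-3.29) and Sesn2 (-3.09) among genes detected in every group (-2.51 and -2.32 after neqc). The fitted difference for Chac1 was -4.72, which is no bound because WT unstimulated cells lacked a detected value.

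Of 9 tested genes of ER-associated degradation, 5 rose with stimulation in cells labelled iNOS-/- and none fell (median 0.73). The share called, 55.6%, was near that of all probes, 50.3%, with 25.2% of all probes higher and 25.1% lower. The 5 that rose, all but Edem1 chosen after their values were seen, were Edem1 (1.37) and Edem2 (1.01), which hand misfolded glycoproteins to degradation, the ubiquitin-conjugating enzyme Ube2j1 (1.14) and Sel1l (0.92) with Syvn1 (0.73), which form the ubiquitin ligase core. After neqc and after quantile normalization 4 were higher and 2 lower, with a median of 0.19 and Edem2 at 0.38 in both, and Syvn1 was no longer called. In WT cells 1 rose, Edem1 (0.48, lost in 11 of the alternatives), and 3 fell, most of all 4933407N01Rik (-0.88), which RefSeq lists as Erlec1, with 1 or 2 calls in all when any single WT array was left out. Among M1 cells the same symbols, Edem1 (0.73), Edem2 (1.03), Ube2j1 (1.10), Sel1l (0.63) and Syvn1 (0.37), were higher with the label and none was lower, while 5 were higher and 1 lower after neqc and 4 and 1 after quantile normalization, with Syvn1 turning to -0.07 in both. Before stimulation none was higher and 2 were lower, 4933407N01Rik by the most (-0.94). The response was more positive with the label in 7 of 9 and more negative in none, Edem2 by the most (1.26), where 19.4% of all probes were more positive. After neqc 6 were more positive and 1 more negative, and after quantile normalization 5 and 1, with Edem2 at 0.57 in both. Without array 2 of WT M1, 4 of the 9 were called.

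Edem2 was at 11.13 and 10.99 in WT unstimulated cells, 10.78 and 10.84 in WT M1, 10.86 and 10.80 in unstimulated cells labelled iNOS-/- and 11.82 and 11.86 in M1 cells labelled iNOS-/-. The M1 group with the label stood above the 6 other arrays.

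ER chaperones and folding enzymes had members called in both directions in each comparison. Of 9 tested, 3 rose and 2 fell with stimulation in WT cells, Hyou1 (2.00-fold, an ER chaperone of the large HSP70 type, lost in 6 of 16 alternatives and as low as 0.35 on the log2 scale after neqc) and Hsp90b1 (-0.65, the chaperone GRP94) by the most. When any single WT array was left out, 1 or 2 of the 9 were called. In cells labelled iNOS-/- 1 rose, the oxidase Ero1lb (1.04), and 1 fell, the disulfide isomerase P4hb (-0.36), and 4 fell after neqc and after quantile normalization. The fall of P4hb was lost without array 1 of the unstimulated or array 2 of the M1 cells labelled iNOS-/-. Before stimulation 1 was higher with the label, Creld2 (0.40, lost in 7 of the alternatives), and 4 were lower, Calr (-0.69, calreticulin) by the most, with 1 to 3 calls in all when any single array of these groups or of WT M1 was left out. Among M1 cells 2 were higher and 3 lower, Ero1lb (0.70) and Hyou1 (-1.03, lost in 3 alternatives and -0.44 after neqc) by the most, with 1 higher and 2 lower without array 1 of the M1 cells labelled iNOS-/-, and the response differed in 4 of 9, from Ero1lb (1.22) to P4hb (-0.76).

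Of 5 tested genes of the sensors and of eIF2α control, 3 rose and none fell with stimulation in WT cells, and 2 rose and 2 fell in cells labelled iNOS-/-. The first count was 1 without either array of WT unstimulated cells or without array 1 of WT M1. Eif2ak2 encodes PKR, an eIF2α kinase that is also an interferon-induced gene, and it rose by 1.74 in WT cells and by 3.09 in cells labelled iNOS-/-. Ppp1r15b encodes CReP, a subunit of the phosphatase that removes the phosphate from eIF2α. It was at 5.50 and 5.51 in WT unstimulated cells, 6.04 and 5.87 in WT M1, 5.06 and 4.98 in unstimulated cells labelled iNOS-/- and 8.23 and 7.99 in M1 cells labelled iNOS-/-. The M1 arrays with the label were the only ones above 7, with a rise of 3.09 (adjusted p = 4.7e-05), a difference of 2.16 from WT M1 (adjusted p = 0.000245) and a difference in response of 2.65 (adjusted p = 0.000472). Before stimulation Ppp1r15b was lower with the label (-0.49) and Mbtps1, a protease that cleaves ATF6, was higher (0.79). The first of these calls was lost without any 1 array of the groups compared, and the second without either array of WT unstimulated cells or array 1 of the cells labelled iNOS-/- (adjusted p between 0.0523 and 0.0708). In the response to stimulation Mbtps1 fell with the label (-0.54, lost in 9 of the alternatives) and differed by -1.24, and the heme-regulated kinase Eif2ak1 was lower among M1 cells (-0.60).

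**Figure D4:**
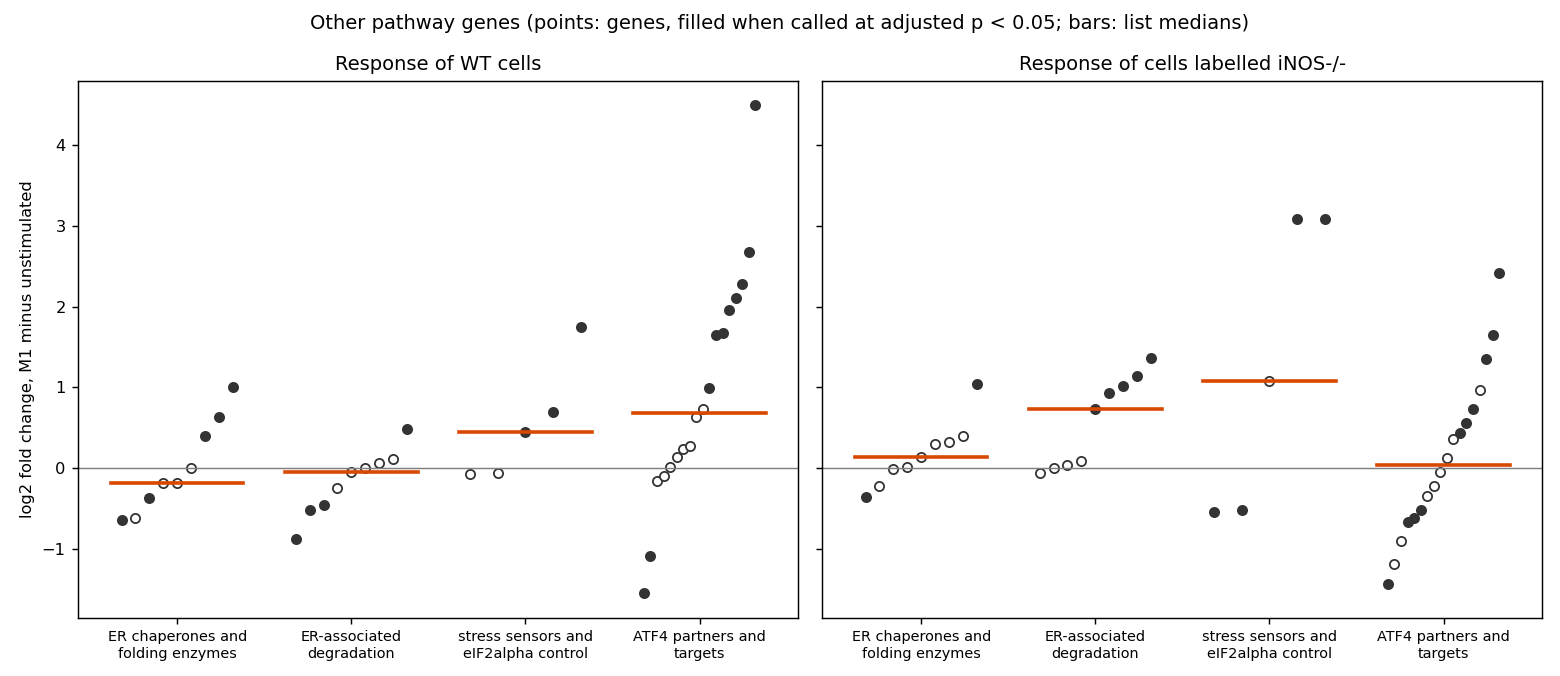
Log2 fold change of M1 against unstimulated cells (y axis) for every tested gene of the 4 pathway lists (x axis), in WT cells on the left and in cells labelled iNOS-/- on the right, with 1 point per gene, filled where called, and a bar for the list's median. In cells labelled iNOS-/-, 5 of 9 genes of ER-associated degradation are called higher and none lower (4 and 2 after neqc and quantile normalization). Of all probes, 25.2% are called higher and 25.1% lower in that comparison. The highest point on the left is the fitted value of Chac1 (4.49), which was undetected in WT unstimulated cells.

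Some marker lists of other cell types moved with the same groups. The summed intensity of dividing cell markers was 607 to 687 in WT unstimulated cells, 1947 to 2077 in WT M1, 2306 to 2311 in unstimulated cells labelled iNOS-/- and 759 to 773 in M1 cells labelled iNOS-/-. All 6 tested dividing cell markers were called in each of the 4 comparisons between groups, in the same direction as Xbp1 in each. Of the 10 markers listed, 8 were on the array (not Mki67 and Aurkb), and Ccnb2 and Bub1 were undetected in every group. The dendritic cell list held Flt3, Zbtb46, Ccr7, Cd209a, Dpp4, Itgax, Il4i1 and Fscn1. It summed to 286 to 319, 6106 to 6162, 4448 to 4644 and 17765 to 18841 in the same group order. This was the order of Asns, and 7 of 8 markers were tested. Flt3 was undetected in every group. Cd209a was also undetected in WT unstimulated cells, with Dpp4, and in M1 cells labelled iNOS-/-. Of the 7, 6 were called higher and none lower in the WT response and before stimulation. In the iNOS-/- response 4 were higher and 1 lower, and among M1 cells 3 were higher and 1 lower. The granulocyte list summed to 1125 to 1148, 1399 to 1505, 1681 to 1747 and 3866 to 3991, with 7 of 9 tested and Mpo undetected in every group. Of the 7, 4 were called higher and 1 lower in the WT response, and 5 higher and 1 lower before stimulation. In the iNOS-/- response 5 were higher and among M1 cells 3, with none lower in either. The 3 T and B cell markers on the array were undetected throughout. Whether these lists reflect the number of such cells or changes of mRNA within macrophages was not tested. Their part in the changes of Asns, Xbp1 and the other members was not tested either.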

How the data were processed

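RNA from GM-CSF bone marrow-derived macrophages was hybridised to 8 Illumina bead arrays, 2 for each of 4 groups, which were taken from the labels. The labels name the array MouseRef-8 v2.0 and the methods MouseWG-8. The authors deposited the intensity of each of 25697 probes as read by GenomeStudio, not normalized between arrays, and a detection p-value for each probe and array. The methods name background subtraction, rank-invariant normalization, 1 in place of negative values, log2 and limma (3.14.4 in the submitters' processing notes). The file header says that no background was subtracted, while 25.2% to 27.2% of values per array lie below 0, as after a subtraction, so no further subtraction was made.

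Scaling used the mean of all arrays as the target and a robust line through the origin over probes whose ranks differed by less than 0.05 of the rank, between 0.5 and 0.9 of all ranks (MASS 7.3.60.0.1, R 4.3.3), with factors from 0.813 to 1.30. After a floor of 1, values were put on the log2 scale. The tests cover the 13868 probes that were detected (p-value under 0.05) on 2 or more arrays. The 4 groups were fitted in 1 model with lmFit and eBayes in limma 3.58.1, with Benjamini-Hochberg adjustment over all probes kept, and a call needs an adjusted p under 0.05. The procedure was run on simulated data in which few probes changed, in a single group. It therefore does not test the scaling where many probes differ between groups, as they do here. A gene is given by its brightest tested probe. For a probe undetected on both arrays of a group, a rise is given as at least N-fold, from the higher of its own value and the lowest detected value per array. The number of arrays limits the precision. Promoter sequences are from RefSeq.

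The members and lists were chosen with earlier results of these data known. All probes of the members are named. Of each pathway list and comparison, the called genes with the largest rise and the largest fall are named. Other pathway genes were picked with their values in view, and the text does not mark each of them. The alternatives were neqc (offset 16), a floor of 16, quantile normalization, all probes without a filter, a detection p-value under 0.01 on 2 arrays of a group, the 4 arrays of a comparison alone, the replicate number as a block, the mean of a gene's tested probes, and each array left out.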

Additional observations from a re-analysis of the deposited data

Results flagged for a closer look

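The response to M1 stimulation differed between cells labelled iNOS-/- and WT cells in 8 of the 10 genes by limma's test of the difference itself. Of all tested probes, 42.0% were called. Under the stricter detection filter, 9 genes and 52.4% of all probes were called. The response was more positive with the iNOS-/- label for Hspa5, by 1.84 on the log2 scale (SE 0.43, adjusted p = 0.0223), Dnajb9, by 1.41 (SE 0.16, adjusted p = 0.00235), Atf4, by 0.73 (SE 0.13, adjusted p = 0.00988), and Ddit3, by 0.41 (SE 0.13, adjusted p = 0.0499). It was more negative for Asns, with -1.95 (SE 0.19, adjusted p = 0.00149), Xbp1, with -1.65 (SE 0.12, adjusted p = 0.000677), Trib3, with -0.98 (SE 0.18, adjusted p = 0.00982), and Pdia4, with -0.90 (SE 0.20, adjusted p = 0.0170). For Hspa5, Dnajb9, Atf4, Xbp1, Trib3 and Pdia4 the changes within the genotypes had opposite signs. Both changes were called only for Xbp1 and Atf4, and that of Atf4 in cells labelled iNOS-/- turned negative after neqc and quantile normalization. The change that was not called was the WT one for Hspa5 (-0.49) and the one in cells labelled iNOS-/- for Dnajb9 (0.23), Trib3 (-0.29) and Pdia4 (-0.20). For Asns both genotypes rose, and for Ddit3 both fell.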

How the results depend on the processing

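Over 16 alternatives, 685 of 790 values of the members kept their direction and their side of the threshold, 73 lost a call, 15 gained one and 17 changed sign. The calls of Asns and Xbp1 in the 5 comparisons, of Ddit3 in the 4 comparisons between groups, of Dnajb9 in 3 and of Pdia4 between M1 cells held in each alternative. Members called numbered 4 to 7 when 1 array was left out in the WT response (7 with all arrays), 3 to 5 in the iNOS-/- response (5), and 5 to 7 in the difference in response (8). The 4 arrays of the comparison alone gave 3 in the iNOS-/- response. Pathway list genes called in the WT response numbered 13 to 21 of 41 when 1 array was left out, against 22.

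The sign changed after neqc and quantile normalization for Atf4 in the iNOS-/- response (-0.16 and -0.17) and between M1 cells (-0.0435 and -0.0446), for Herpud1 in the iNOS-/- response (-0.42 in both) and in the difference in response (-0.23 in both), for Ddit4 in the WT response (-0.0699 and -0.12) and in the difference in response (0.0307 and 0.0633), and for Syvn1 between M1 cells (-0.0659 and -0.0663). With 1 array left out it changed for Dnajb9 between M1 cells, with values from -0.106 to 0.115, and for Pdia4 between unstimulated cells, from -0.0932 to 0.153. Scale factors were 0.813 to 0.892 on the unstimulated arrays and 1.10 to 1.30 on the M1 arrays. Before scaling, Atf4 was at 1672.0 and 1677.8 in unstimulated and 1576.1 and 1546.0 in M1 cells labelled iNOS-/-. Herpud1 was at 3281.1 and 3263.9, and at 2706.8 and 2641.0, in the same groups. The signs of these 2 changes thus depended on the scaling, and which scaling is closer to the mRNA amounts was not tested. Quantile normalization moved the median of all probes in the iNOS-/- response from 0.00 to -0.13 and in the WT response from 0.09 to -0.06. The latter was -0.04 after neqc. Single genes moved further. In the iNOS-/- response Herpud1 went from 0.17 to -0.42 and Atf4 from 0.36 to -0.17. Xbp1 went there from -0.75 to as low as -1.32 over the alternatives, called lower in each. Changes up to the size of these shifts are not separable from the scaling.

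Arrays with the same replicate number did not deviate together (correlations of deviations from the group means between -0.0375 and 0.0247). These values, from so few arrays per group, cannot tell if a replicate number stands for a shared mouse or culture. With the replicate number as a block, 6 members were called in the WT response, 5 in the iNOS-/- response, 5 between unstimulated cells, 5 between M1 cells and 7 in the difference in response, and 21, 23, 20, 21 and 28 of the pathway genes. A slide block was not run because the table names no slides. Signals near background limit Trib3, Ddit4, the dimmest Asns probe and Chac1. Low signal also limits Hspa5 (4.82 to 6.72 over the arrays, SE 0.31) and Hyou1 (3.20 to 4.70).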
